A study of Ovis aries with 20 samples.

Results

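Transcripts of 8 oocyte genes were followed through libraries made from the follicle wall of sheep. The genes were ZP2, ZP3, ZP4, GDF9, BMP15, MOS, NLRP5 and DAZL. They were chosen by name as genes known from oocytes, with earlier results of these data known. In all, 8 of 8 were found among the 28524 genes of the deposited table, of which 24823 had a value above 0 in some library. All 8 had reads in granulosa cell libraries, although the oocyte itself was not the cell named by any label. Reads of MOS and DAZL were absent from the theca libraries. ZP3, ZP4 and BMP15 were at trace levels there, and ZP2 and GDF9 were the members with reads in 9 and 10 of the 10 theca libraries.

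An oocyte grows inside a follicle, surrounded by granulosa cells that feed it and are in turn steered by factors it secretes. It coats itself with the zona pellucida, a glycoprotein shell that sperm bind, and it stores messenger RNA and protein for meiosis and for the early embryo. Theca cells lie outside the basement membrane of the follicle and have no direct contact with the oocyte. Sheep are a classical species for this biology, since variants of BMP15, of GDF9 and of the BMP receptor gene BMPR1B are known to change the ovulation rate of ewes.

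Granulosa and theca cells came from adult female offspring at 21 months of age. Prenatal T sheep (209, 210, 230, 276 and 315) were born to ewes injected with 100 mg testosterone propionate, 1.2 mg/kg, 2 times a week between gestation days 30 and 90. Control sheep (139, 224, 244, 246 and 268) were born to ewes given vehicle over the same span. All 10 animals were synchronized with 2 injections of prostaglandin F2α, and ovaries were taken 18 h after the last of these. Each library pooled the microdissected granulosa or theca cells of several antral follicles of 1 animal. Details on whether the dissected areas reached an oocyte or its cumulus are not given in the sources used here. The table held 5 prenatal T and 4 control granulosa libraries and 5 prenatal T and 5 control theca libraries, with both layers from 9 animals. Granulosa cells of control sheep 139 were not analysed here. Values are normalized counts, which are gene counts scaled by the authors with 1 size factor per library. A read was worth about 1 normalized count, and the recovered depth was 12.7 to 26.0 M reads per library. Gene lengths were not used, so levels are compared between libraries and not between genes. Values of granulosa cells are listed in the order of prenatal T sheep 209, 210, 230, 276 and 315 and of control sheep 224, 244, 246 and 268. Theca values follow the same order, with control sheep 139 ahead of the other 4 controls.

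Both libraries of prenatal T sheep 209 stood apart. In its granulosa library 3 of 14 granulosa markers, AMH, FSHR and CYP19, were at 0. The markers summed to 39409, against 85310 to 206210 in the other prenatal T granulosa libraries and 59658 to 187732 in controls. SERPINE2, at 23198, and VNN2, at 15279, made up most of that sum. VNN2 was far lower in the other prenatal T granulosa libraries, at 44.7 to 73.4. INHA was at 8.05, against 9914 to 38080 in those libraries, and FOXL2 at 36.8, against 5391 to 8151. Genes listed for the cumulus, the cells around an ovulating oocyte, summed to 44683 in that library, against 309 to 2279 in the other prenatal T libraries and 490 to 1519 in controls (10 genes). PTX3 alone stood at 31618, while PCSK6 stood at 36.8, against 59.2 to 181 in the other prenatal T granulosa libraries. The listed genes were as prominent in its theca library, at 55278, against 385 to 1604 in the other prenatal T and 443 to 734 in control theca libraries. In its theca library the theca markers summed to 448312, against 651414 to 756578 in the other prenatal T libraries and 699346 to 935209 in controls (14 genes). Collagen genes made up most of that sum, and single markers differed. INSL3 was at 1.27 and CYP17A1 at 0, against 5342 to 13965 and 795 to 2523 in the other prenatal T theca libraries. DCN lay within the range of those libraries, and ACTA2 lay above it, at 56967 against 33020 to 43605. The limma changes of the tested members with prenatal T in granulosa cells are therefore given with and without this animal. Other results include it unless stated. In bulk samples of this kind, fewer cells of a type and less RNA per cell cannot be told apart.

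The 3 zona genes encode glycoproteins of the egg coat. ZP2 had normalized counts of 0, 35.5, 24.5, 40.1 and 73.4 in prenatal T granulosa cells, against 116, 151, 21.0 and 2.43 in control granulosa cells. Theca cells had 0, 13.9, 5.23, 8.19 and 6.83 in prenatal T sheep and 23.3, 10.3, 4.02, 3.25 and 21.0 in controls. The highest granulosa libraries were those of control sheep 244 and 224, and control sheep 268 had more ZP2 in theca than in granulosa cells. ZP3, which builds the filaments of the coat together with ZP2, had 0, 52.8, 10.8, 28.7 and 105 in prenatal T granulosa cells, against 107, 162, 34.0 and 4.05 in control granulosa cells. In theca cells its values were 1.27, 0, 1.05, 0 and 1.14 in prenatal T sheep and 0, 0.934, 0, 1.08 and 0 in controls, which is at most 1 read in any library. ZP4 had 0, 23.7, 3.92, 19.5 and 79.3 in prenatal T granulosa cells, against 61.7, 99.3, 13.0 and 0 in control granulosa cells. Theca cells had no ZP4 read except 3 in prenatal T sheep 230, a value of 3.14. For all 3 zona genes the prenatal T and control granulosa libraries overlapped, with sheep 209 at 0 and sheep 268 at or near 0.

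GDF9 and BMP15 are growth factors of the TGF-β family that the oocyte releases to act on granulosa and cumulus cells. GDF9 had 12.7, 29.1, 27.4, 21.8 and 63.9 in prenatal T granulosa cells, against 75.0, 67.3, 21.7 and 14.6 in control granulosa cells. In theca cells it had 10.1, 20.3, 7.33, 6.14 and 4.55 in prenatal T sheep and 13.8, 20.6, 18.1, 8.66 and 10.5 in controls. It was the member with reads in every one of the 19 libraries, and the ranges of the layers overlapped. BMP15 had 0, 18.3, 11.8, 24.1 and 35.5 in prenatal T granulosa cells, against 51.1, 65.1, 27.5 and 0 in control granulosa cells. A single BMP15 read was found in the 10 theca libraries, in prenatal T sheep 230. The 7 other granulosa libraries had values of at least 11.8, and those of sheep 209 and 268 had no BMP15 read.

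MOS is the kinase that keeps the mature egg in meiotic arrest. It had 0, 14.0, 21.6, 22.9 and 48.5 in prenatal T granulosa cells, against 90.6, 83.8, 31.1 and 0 in control granulosa cells, and 0 in all 10 theca libraries. As with BMP15, the libraries without a read were those of sheep 209 and 268, and the treatment groups overlapped. NLRP5, also called MATER, belongs to the subcortical maternal complex that the early embryo needs. It had 0, 12.9, 0, 8.02 and 18.9 in prenatal T granulosa cells, against 28.9, 16.5, 4.34 and 2.43 in control granulosa cells. Theca libraries with NLRP5 reads were those of prenatal T sheep 210, at 2.13, and of control sheep 139 and 246, at 3.17 and 6.49. DAZL, an RNA-binding protein of germ cells that promotes translation, was barely detected. It had 4 reads in granulosa cells of prenatal T sheep 276, a value of 4.58, and 2 reads in those of control sheep 224, a value of 1.11.

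**Figure D1:**
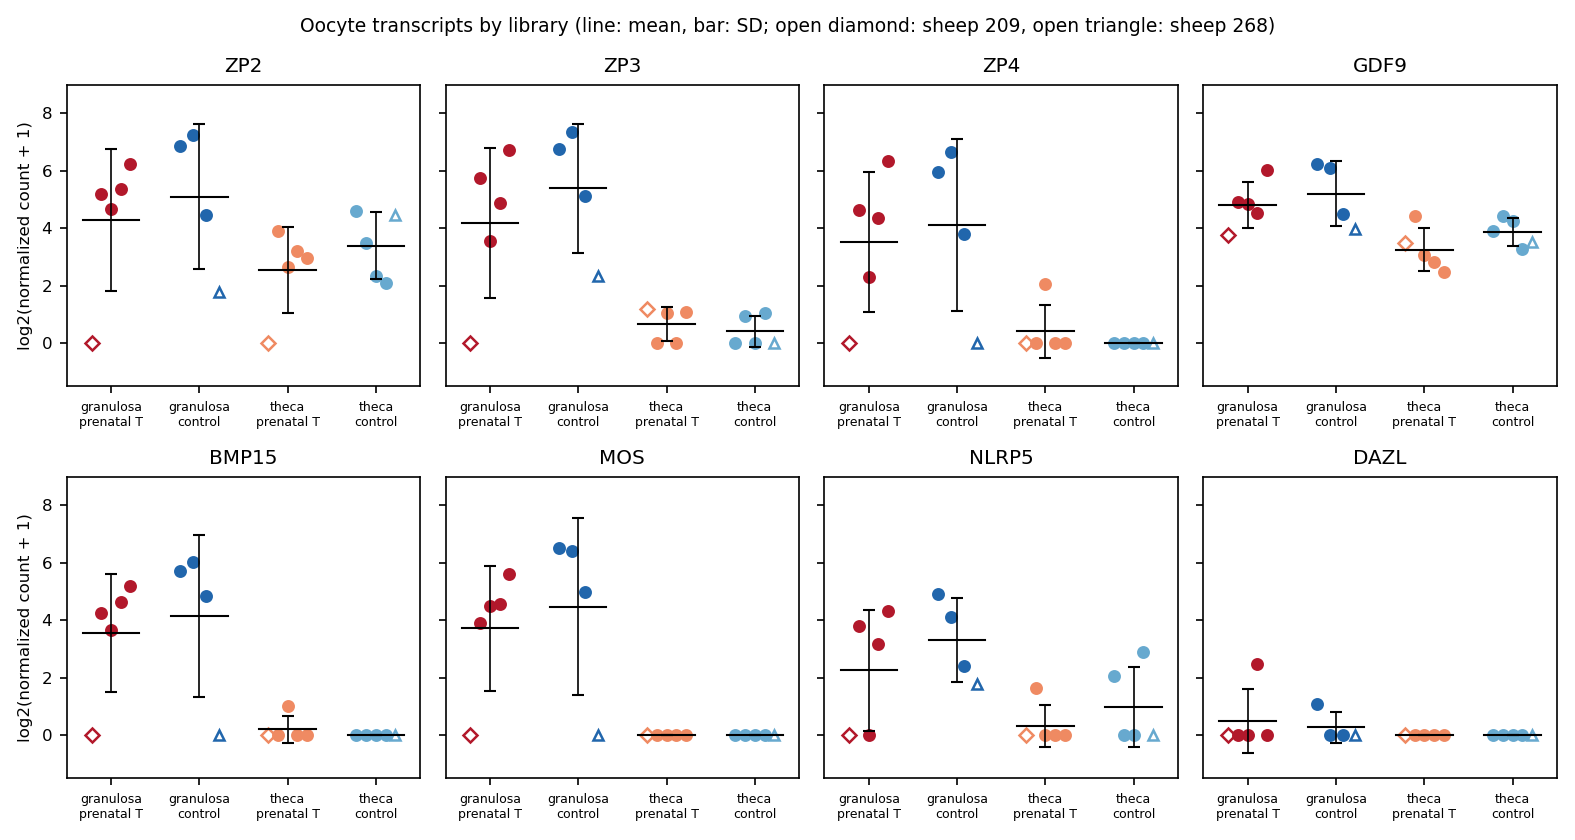
Each panel plots one gene as log2(normalized count + 1) on the vertical axis, with 1 point per library in the groups granulosa prenatal T (n = 5), granulosa control (n = 4), theca prenatal T (n = 5) and theca control (n = 5). Lines are means and bars SD of the log2 values, and open symbols mark sheep 209 and 268, which lie lowest in granulosa cells in the panels of ZP2, ZP3, ZP4, GDF9, BMP15 and MOS.

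Summed over the 8 genes, normalized counts were 179 ± 154 in prenatal T granulosa cells (SD, n = 5), 338 ± 297 in control granulosa cells (n = 4), 18.5 ± 10.3 in prenatal T theca cells (n = 5) and 29.0 ± 8.33 in control theca cells (n = 5). The spread between granulosa libraries of 1 group was nearly as large as the mean. It ran from 12.7 in sheep 209 to 425 in sheep 315 among prenatal T animals and from 23.5 in sheep 268 to 645 in sheep 244 among controls. The low granulosa library of sheep 268 held 29 reads of the 8 genes in 18.3 M reads, but its AMH was 6293 and its FSHR 2172, so the granulosa hormone and receptor markers that were at 0 in sheep 209 were present there. In sheep 209 the members had 11 reads in 16.1 M, all of GDF9, and a gene at 0 in that library is limited to a normalized count of 3.45 (3 reads; counting error only).

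The order of the group means was the same for ZP2, GDF9 and NLRP5, highest in control granulosa cells, followed by prenatal T granulosa, control theca and prenatal T theca cells. ZP2 averaged 34.7 ± 26.6 in prenatal T granulosa and 72.5 ± 72.1 in control granulosa cells, and 6.82 ± 5.02 in prenatal T theca and 12.4 ± 9.35 in control theca cells (SD, n as above). GDF9 averaged 31.0 ± 19.5 in prenatal T granulosa and 44.6 ± 30.9 in control granulosa cells, and 9.68 ± 6.26 in prenatal T theca and 14.3 ± 5.00 in control theca cells. NLRP5 averaged 7.98 ± 8.25 in prenatal T granulosa and 13.1 ± 12.3 in control granulosa cells, and 0.427 ± 0.955 in prenatal T theca and 1.93 ± 2.90 in control theca cells. For these 3 genes each pair of neighbours in this order differed by less than the larger of their SDs. The other members kept the order of the granulosa groups except DAZL, at 0.917 ± 2.05 in prenatal T and 0.278 ± 0.556 in control granulosa cells, and their theca means were below 1.

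The mixture of the 8 transcripts can be described where a library had enough reads. In the 7 granulosa libraries with at least 50 member reads, ZP2 took 13.7 to 24.5% of these reads (median 21.8%), ZP3 took 10.8 to 28.3% (median 22.3%) and ZP4 took 3.92 to 18.7% (median 11.6%). GDF9 took 10.4 to 27.5% (median 14.2%), BMP15 took 8.36 to 18.0% (median 10.1%), MOS took 7.51 to 21.6% (median 13.5%) and NLRP5 took 0 to 6.94% (median 4.46%). Prenatal T sheep 230 had the lowest ZP3 share, 11 of its 102 member reads (exact 95% interval 5.51 to 18.5%), and the highest GDF9 share, 28 of 102 (19.1 to 37.2%). Shares are of reads and are not corrected for transcript length.

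Theca libraries held another mixture. Pooled over the 10 of them, GDF9 made up 50.2% and ZP2 41.2% of 233 member reads, together 91.4%, whereas this pair made up 35.6% of the 2573 member reads of the granulosa libraries. The pair was singled out after its values were seen. The other 6 genes had 20 reads in all theca libraries, 11 of them of NLRP5. The granulosa libraries of sheep 268 and 209 also had a high GDF9 share, 62.1% of 29 reads (exact 95% interval 42.3 to 79.3%) and 100% of 11 reads (71.5 to 100%).

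**Figure D2:**
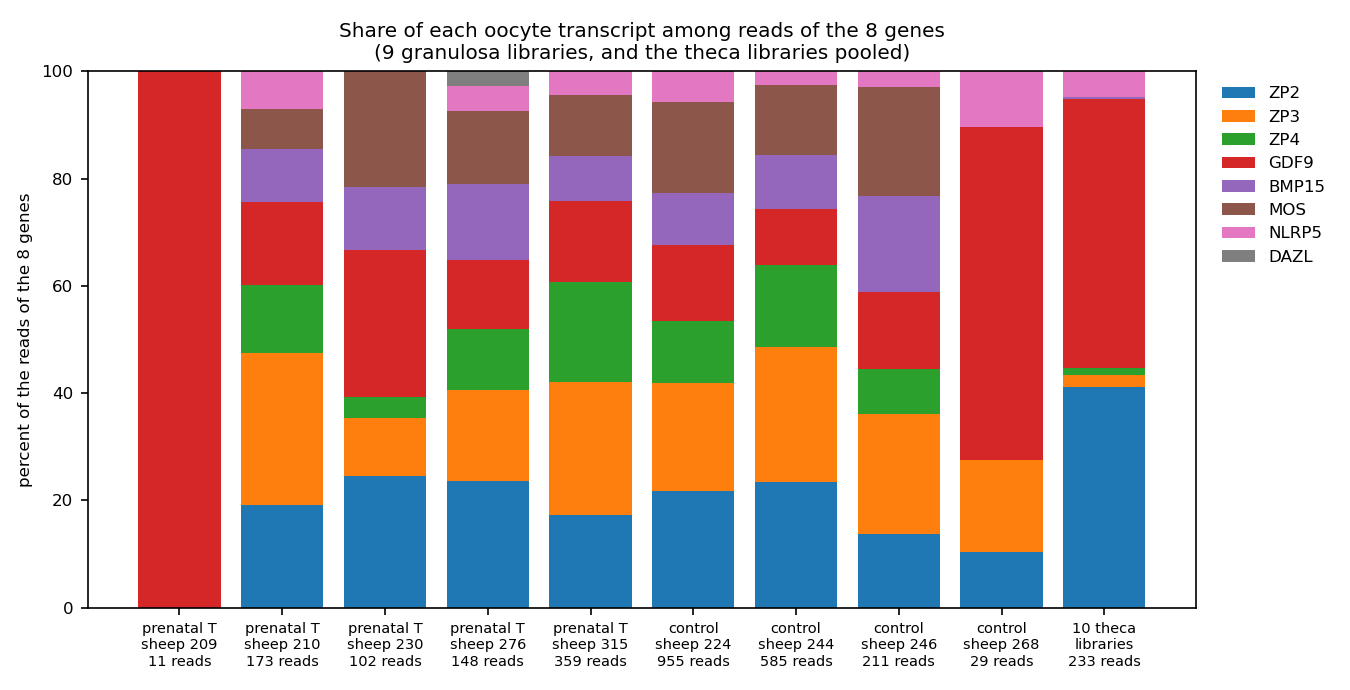
Stacked bars give the percent of the reads of the 8 genes that each gene took, for 5 prenatal T and 4 control granulosa libraries and for the 10 theca libraries pooled, with the read total under each bar. The 7 granulosa libraries with over 100 reads share a mixture of zona, growth factor and MOS reads, while the bars of sheep 209 and 268 and of theca cells are mostly GDF9 or GDF9 with ZP2.

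The members varied together between granulosa libraries. Across the 9 granulosa libraries the 21 pairs among the 7 genes other than DAZL had Pearson r of log2(value + 1) from 0.69 to 0.99 (median 0.90) and Spearman rho from 0.80 to 0.97. Without sheep 209 and 268, the lowest libraries for most members, the 7 remaining gave r from 0.56 to 0.98 (median 0.85) and rho from 0.64 to 0.93. All values of a library share its size factor and its depth, and these correlations are given as a description. Control sheep 244 and 224 and prenatal T sheep 315 held the highest 3 places for ZP2, ZP3, ZP4, GDF9, BMP15 and MOS, in varying order.

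Granulosa against theca cells was tested within animals, by limma on log2(value + 1) with the animal as a block, which asks where in the follicle wall the transcripts lie. Of 16269 genes tested, 56.6% passed the adjusted p of 0.05 and 28.6% were higher in granulosa cells, so a call in this comparison is common. ZP2, ZP3, ZP4, GDF9, BMP15 and MOS passed the filter on low values, which asks for 10 or more in no fewer than 5 libraries, and each was higher in granulosa cells. ZP3, ZP4, BMP15 and MOS met that filter through granulosa libraries alone. Their number is therefore not set against the background, and their differences and adjusted p are given as a description. The members were also chosen with earlier results of these data known, so the adjusted p of GDF9 and ZP2 are a description too. ZP3 differed by 4.13 ± 0.75 on the log2 scale (SE; adjusted p = 0.000712 by limma with Benjamini-Hochberg adjustment) and was higher in 8 of 9 animals. BMP15 differed by 3.70 ± 0.70 (adjusted p = 0.000864) and ZP4 by 3.55 ± 0.81 (adjusted p = 0.00312), each higher in 7 of 9 animals and lower in 0. MOS differed by 4.06 ± 0.73 (adjusted p = 0.000667). The differences of ZP3, BMP15, ZP4 and MOS depend on the added 1, because theca libraries had no MOS read and few or no reads of the others. The smallest differences were those of GDF9, 1.46 ± 0.33 (adjusted p = 0.00267; higher in 9 of 9 animals), and of ZP2, 1.86 ± 0.64 (adjusted p = 0.0271; higher in 7 of 9 animals). The call of ZP2 did not hold without sheep 224, 230, 244, 246, 276 or 315, each left out alone, with adjusted p of 0.0517 to 0.0681 by limma, nor with no replicate block, with 0.113.

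Exact two-sided sign-flip tests over the 9 animals covered all 8 genes, the low ones included. Since the members were chosen with earlier results of these data known, the p-values of this paragraph are given as a description. The exact p was 0.00391 for GDF9, the smallest value that 9 pairs allow, 0.00781 for ZP3 and 0.0156 each for ZP4, BMP15 and MOS. For NLRP5 the mean difference was 2.22 and exact p = 0.0312, higher in 6 of 9 animals, and for ZP2 exact p = 0.0469. DAZL, with reads in 2 animals, differed by 0.40 with exact p = 0.5. Fitted by limma without the filter, where 37.8% of 24823 genes were called and 18.9% were higher in granulosa cells, NLRP5 was higher by 2.22 ± 0.61 (adjusted p = 0.0140) and DAZL had 0.40 (adjusted p = 0.288).

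**Figure D3:**
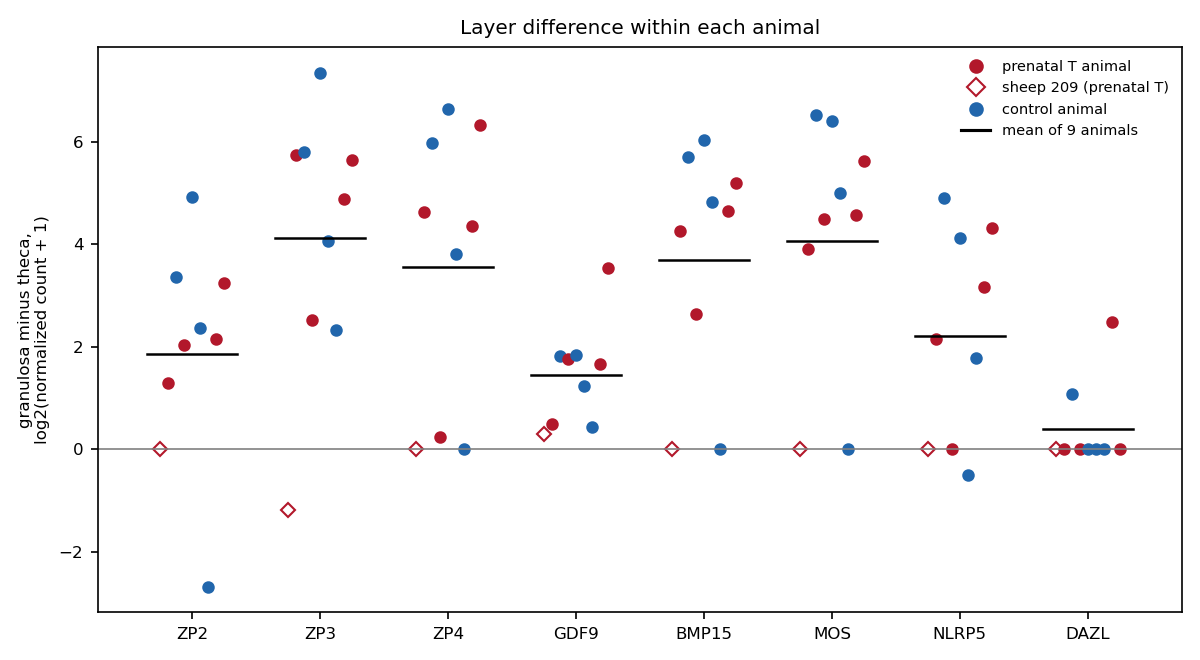
Points give the granulosa minus theca difference in log2(normalized count + 1) on the vertical axis for each of 9 animals (5 prenatal T, 4 control) and each gene along the horizontal axis, with the mean as a line. ZP3, BMP15, MOS and ZP4 have the largest mean differences, GDF9 lies above 0 in 9 of 9 animals, and sheep 209 (open diamonds) lies at or near 0 except for ZP3.

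Pooled over libraries and scaled to the layers' read totals, the ratio of granulosa to theca cells differed by gene. ZP3 had 565 reads in 150 M granulosa reads and 5 in 153 M theca reads, a ratio of 115 (95% exact interval 49.0 to 356; counting error only). ZP4 had 329 and 3 reads, a ratio of 112 (37.9 to 544), and BMP15 269 and 1, a ratio of 274 (48.7 to 10858). MOS, with 378 reads in granulosa and 0 in theca cells, was at least 128-fold higher in granulosa cells, taking 3 reads over the theca group as the floor. By contrast the ratio was 10.3 for NLRP5 (111 and 11 reads; 5.53 to 21.2), 5.64 for ZP2 (532 and 96 reads; 4.53 to 7.09) and 3.33 for GDF9 (383 and 117 reads; 2.70 to 4.14).

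Granulosa markers give a scale for these ratios. AMH and FSHR, which granulosa cells and not theca cells are known for, had theca levels of 15.6% and 16.5% of their granulosa levels on the same scale, with 42687 granulosa and 6798 theca reads for AMH. Theca levels of ZP3, ZP4 and BMP15 were 0.869%, 0.896% and 0.365% of the granulosa levels, and that of MOS was at most 0.779%. Those of ZP2 and GDF9 were 17.7% and 30.0%. Over the 14 granulosa markers this theca level ran from 10.3% for CYP19 to 92.8% for GATM, with a median of 20.4%, and FOXL2 and ESR2 were at 66.0% and 87.0%. It was lower than that of ZP2 in 6 markers and lower than that of GDF9 in 10. The 14 markers summed to 20432 to 42881 in prenatal T theca libraries and 19529 to 34268 in control theca libraries, with 3 of them at 0 in sheep 209, and their part in these values was not tested. In the other direction, the 14 theca markers summed to 22103 to 44168 in prenatal T granulosa libraries and 36805 to 87038 in control granulosa libraries.

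In RefSeq's annotation of sheep assembly ARS-UI_Ramb_v3.0, which matched 8 of 8 members, ZP2 overlaps LDAF1, a lipid droplet gene that the deposited table lists under the older symbol TMEM159. Its level was 90.3 ± 45.1 in prenatal T granulosa, 88.0 ± 27.4 in control granulosa, 108 ± 34.4 in prenatal T theca and 98.9 ± 24.6 in control theca cells. The libraries were made with a stranded kit, but strand settings of the counting are not given in the sources used here. The overlap is one of whole gene spans, and the genome build used for the counting is not given either. Without strand, reads in a stretch that both genes share cannot be assigned to ZP2 or LDAF1, so ZP2 levels are uncertain. In the RefSeq annotation NLRP5 overlaps a non-coding RNA gene, and no overlap was listed for the other 6 members.

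Prenatal T against control in granulosa cells asks whether testosterone before birth changes the transcripts of adult follicles. No member passed the test, nor did any of the 14724 genes tested by limma (0%; 622 genes had an unadjusted p under 0.05). On the same genes edgeR called 0 and DESeq2 16, none of them a member. The log2 change was -0.80 ± 1.49 for ZP2 (SE; 95% interval -4.15 to 2.55), -1.21 ± 1.47 for ZP3 (-4.52 to 2.11) and -0.58 ± 1.61 for ZP4 (-4.21 to 3.04). It was -0.39 ± 0.62 for GDF9 (-1.80 to 1.01), -0.59 ± 1.45 for BMP15 (-3.86 to 2.68) and -0.76 ± 1.55 for MOS (-4.26 to 2.74). Adjusted p by limma lay between 0.879 and 0.936 for these 6. Apart from that of GDF9, the intervals span changes of more than 4-fold in either direction, so a difference of that size was not detectable at this spread. NLRP5 and DAZL did not reach the filter, and their differences of -1.05 and 0.23 had exact two-sided permutation p of 0.429 and 1. The exact permutation p of the 6 tested members ran from 0.492 for ZP3 to 0.825 for ZP4.

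All 6 point estimates were below 0 with the 9 libraries, and in the limma fit on log2(value + 1) sheep 209 decided the direction of 4 of them. Without it the limma change was 0.27 ± 1.08 for ZP2 (95% interval -2.17 to 2.72), 0.30 ± 1.42 for ZP4 (-2.91 to 3.50), 0.30 ± 1.21 for BMP15 (-2.42 to 3.02) and 0.17 ± 1.31 for MOS (-2.78 to 3.12). ZP3 stayed below 0 at -0.16 ± 1.09 and GDF9 at -0.13 ± 0.59. On recovered reads the direction did not turn, and without sheep 209 edgeR gave -0.71 for ZP2, -0.59 for ZP3, -0.42 for ZP4, -0.30 for GDF9, -0.64 for BMP15 and -0.91 for MOS, with DESeq2 within 0.01 of each. Mean ZP2 without sheep 209 was 43.4 ± 21.1 in prenatal T granulosa cells (SD, n = 4) and 72.5 ± 72.1 in control granulosa cells (n = 4). Single controls moved the limma values in both directions. ZP4 was 0.26 without sheep 244 and 0.036 without sheep 224, and BMP15 was 0.045 without sheep 244. Without the low control sheep 268 the changes were -1.90 for ZP2, -2.22 for ZP3, -1.95 for ZP4, -0.81 for GDF9, -1.97 for BMP15 and -2.25 for MOS, with an adjusted p of 0.938 by limma for each.

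**Figure D4:**
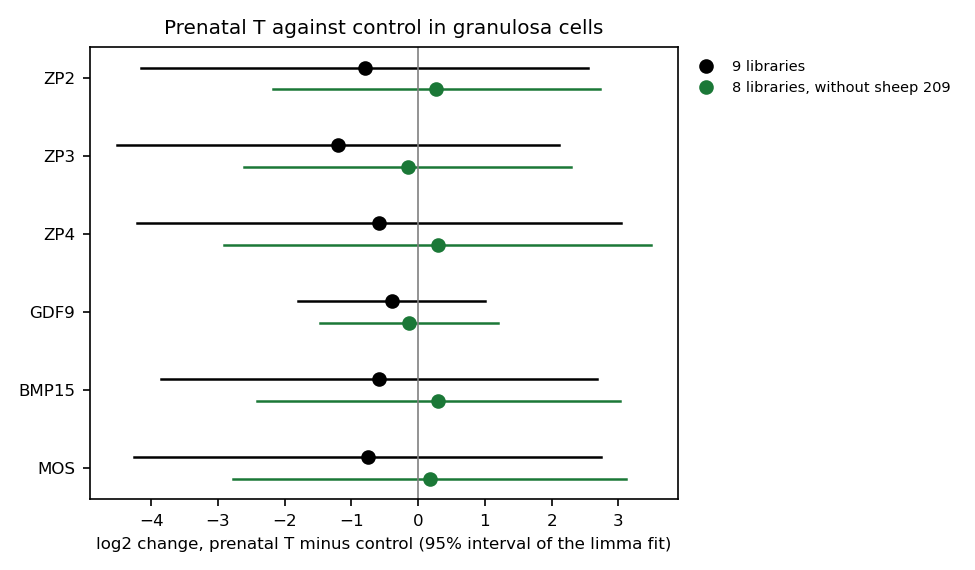
Points give the log2 change of prenatal T minus control granulosa cells on the horizontal axis with the 95% interval of the limma fit, for 6 genes down the page, with 9 libraries (5 prenatal T, 4 control; black) and with 8 libraries without sheep 209 (green). Each interval includes 0, and the points of ZP2, ZP4, BMP15 and MOS lie above 0 without sheep 209 in this fit.

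In theca cells GDF9 alone of the members passed the filter. It averaged 9.68 ± 6.26 in prenatal T and 14.3 ± 5.00 in control theca cells (SD, n = 5 each), a log2 change of -0.62 ± 0.46 (SE; 95% interval -1.64 to 0.39; adjusted p = 0.711 by limma; exact permutation p = 0.159). Of 15492 genes limma called 0 (0%; 1192 at an unadjusted p under 0.05), edgeR 0 and DESeq2 7, none of them a member. ZP2, which missed the filter, differed by -0.85 with exact permutation p = 0.373, and by -0.22 with p = 0.746 without sheep 209. NLRP5 differed by -0.66 with exact permutation p = 0.444, and for ZP3, ZP4 and BMP15, with at most 3 reads in a theca library, the exact permutation p ran from 0.365 to 1. The treatment groups overlapped for each of these genes.

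The difference of the treatment changes between the layers was not called for any of 16269 genes by limma (0%; 758 at an unadjusted p under 0.05) or edgeR, and DESeq2 called 18 genes, none of them a member. It was -0.25 ± 1.35 for ZP2 (95% interval -3.25 to 2.75), -1.37 ± 1.53 for ZP3 (-4.78 to 2.05), -0.99 ± 1.69 for ZP4 (-4.76 to 2.77), 0.22 ± 0.68 for GDF9 (-1.29 to 1.74), -0.80 ± 1.45 for BMP15 (-4.01 to 2.42) and -0.76 ± 1.53 for MOS (-4.16 to 2.64). The adjusted p ran from 0.960 to 0.986, and each of these intervals includes 0.

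Other oocyte genes were read from 7 lists that together hold 71 genes beyond the members, 55 of them in the table. Between the layers 37 were tested, of which 23 were higher in granulosa cells, 3 were lower and 11 were not called. Of the 37, 12 were under 10 in every theca library and met the filter through granulosa libraries alone, 11 of them among the 23, so these counts are not set against the background. Another 19 reached 10 in 5 or more theca libraries. Of these 9 were higher in granulosa cells, 3 lower and 7 not called, with a median difference of 0.44, beside 0.025 over all genes tested, of which 28.6% were called higher. Some of the 37 genes, among them KIT, UHRF1, CD9, PLK1, BUB1B and SPIRE1, are known in somatic cells too. Of the NLRP family, NLRP8 had 982 reads in granulosa and 0 in theca cells, at least 333-fold higher, and NLRP9 had 232 and 0 reads, at least 78.7-fold higher (floor of 3 reads over the theca group). NLRP14, another NLRP protein of the egg, differed by 3.14 ± 0.57 (adjusted p = 0.000653), and PADI6, a protein of the cytoplasmic lattices of the egg, by 3.68 ± 0.74 (adjusted p = 0.00133). NLRP8, NLRP9 and NLRP14 were among the 12 genes under 10 in every theca library. PADI6 reached 10 in the theca library of sheep 209 alone, at 39.2. The differences of NLRP14 and PADI6 are therefore given as a description.

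Among genes of meiosis, WEE2, the oocyte kinase that holds CDK1 inactive, differed by 4.91 ± 0.51 on the log2 scale between granulosa and theca cells (adjusted p = 1.3e-05 by limma). PLK1 and BUB1B, which serve mitosis in all dividing cells, differed by 1.07 ± 0.08 and 0.96 ± 0.11, and CCNB3, a cyclin known from meiosis, by 0.82 ± 0.13. KPNA7, an importin of oocytes, differed by 3.68 ± 0.59 and ACCSL by 4.89 ± 0.84. BTG4, which clears maternal messenger RNA, differed by 2.89 ± 0.67, ELAVL2, an RNA-binding protein, by 2.20 ± 0.54 and YBX2, which stabilizes stored messenger RNA, by 1.76 ± 0.32. ASTL, the egg protease ovastacin that cleaves ZP2 after fertilization, differed by 3.04 ± 0.82, UHRF1 by 1.11 ± 0.14 and the receptor KIT by 0.88 ± 0.21. The 3 genes lower in granulosa cells were PATL2 at -2.23 ± 0.19, ZNF831 at -1.82 ± 0.62 and CCNB1IP1 at -1.44 ± 0.36, the last named after its value was seen, and theca levels of PATL2 were 150 ± 64.2 in prenatal T and 211 ± 77.9 in control sheep (SD, n = 5 each). The adjusted p of the genes in this paragraph was at most 0.0257. WEE2, KPNA7, ACCSL, BTG4, ELAVL2 and ASTL were under 10 in every theca library. They met the filter through granulosa libraries alone, so their differences are given as a description.

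Not all of these genes were lost with the members in sheep 209. In its granulosa library BNC1, a zinc finger protein also known in epithelia, stood at 242. It was at most 23.7 in the other prenatal T granulosa libraries and 18.8 in controls. PADI6 stood at 56.4, within the 4.90 to 84.1 of the other prenatal T and the 3.24 to 105 of control granulosa libraries. The 3 zona genes, BMP15 and MOS were at 0 in the granulosa library of sheep 209. BNC1 was at 100.0 and PADI6 at 39.2 in the theca library of the same animal. The 2 genes were picked out for these values.

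**Figure D5:**
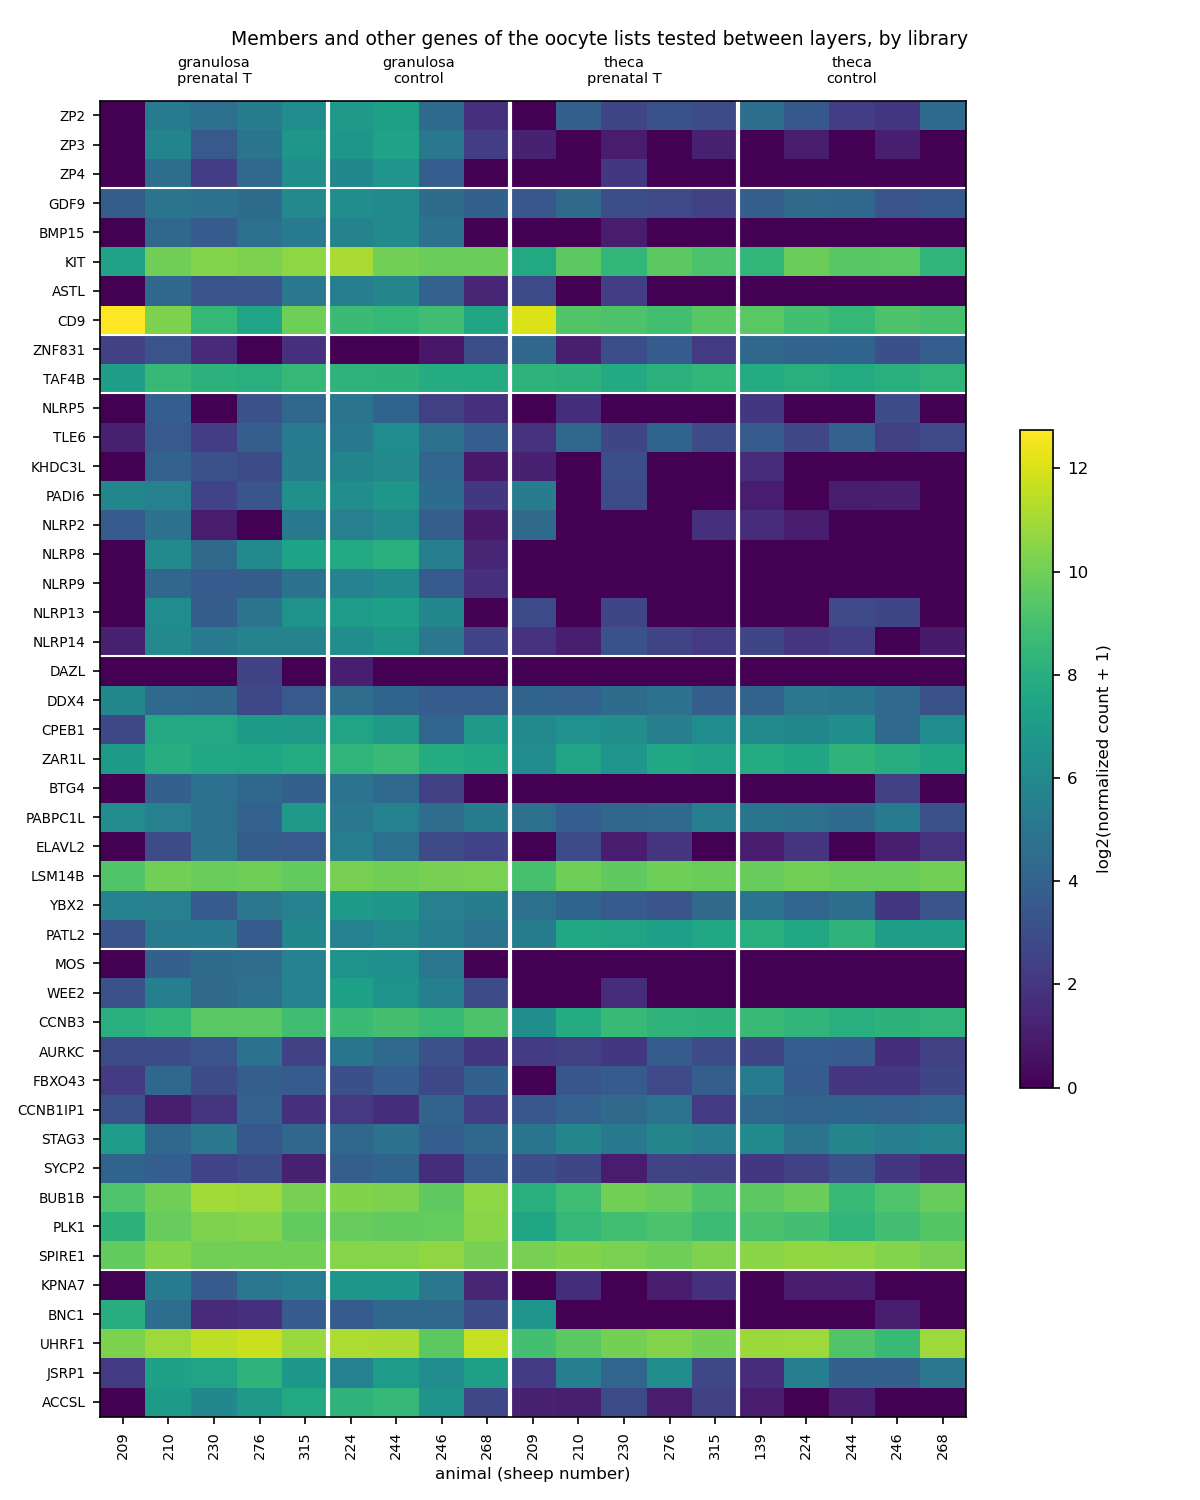
Colours give log2(normalized count + 1) of the members and the other oocyte list genes tested between layers (rows, grouped by list) in 9 granulosa and 10 theca libraries (columns, by sheep number, prenatal T left of control in each layer). Most NLRP genes, KPNA7, ACCSL and WEE2 follow the members, dark in theca cells and in the granulosa libraries of sheep 209 and 268, while rows such as LSM14B, SPIRE1 and UHRF1 are bright throughout.

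With prenatal T, none of the 34 other oocyte list genes tested in granulosa cells and none of the 19 tested in theca cells was called by limma, with 2 and 1 at an unadjusted p under 0.05, and edgeR and DESeq2 also called 0 of them in each layer. In granulosa cells 24 of 34 changes were below 0, with a median of -0.37, beside 51.7% below 0 and a median of -0.015 over all genes. Without sheep 209 the count was 17 of 33 and the median -0.020, beside 52.1% and -0.013 over all genes. In theca cells 13 of 19 were below 0 with a median of -0.24, beside 50% and a median of 0.00015 over all genes. Without sheep 209 it was 12 of 19 with a median of -0.046, beside 51.7% and -0.013. The list genes of highest level had log2 changes of -0.36 ± 0.15 for LSM14B and -0.36 ± 0.16 for SPIRE1 in granulosa cells (SE; adjusted p = 0.875 for both by limma). It was -0.54 ± 0.28 for ZAR1L, -0.53 ± 0.64 for KIT, 0.16 ± 0.44 for UHRF1, 0.060 ± 0.36 for BUB1B, 0.016 ± 0.29 for TAF4B and -0.12 ± 1.13 for JSRP1. NLRP8 had -0.87 ± 1.76 and NLRP13 -0.74 ± 1.77. CD9, a membrane protein of the egg that sperm fusion needs and that many somatic cells carry, had 1.37 ± 0.93, with a level of 6894 in sheep 209, against 173 to 1202 in the other prenatal T and 182 to 455 in control granulosa libraries.

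The genes whose pattern was most like the mean of the members were found among 13223 genes with a symbol by Pearson r of log2(value + 1) over the 19 libraries. They were NLRP8 (r = 0.99), FOXI3 (0.98), NLRP9 (0.97), KPNA7 (0.97), UNCX (0.96), ACCSL (0.96), KHDC3L (0.93), NLRP14 (0.92), SAXO1 (0.92) and WEE2 (0.91). Of these 10, 7 stood on the oocyte lists, which hold 37 of the 13223 genes compared. The lists were chosen with earlier results of these data known, so such overlaps are given as a description. Within the 9 granulosa libraries the 10 nearest were NLRP8, KPNA7, ASTL, FOXI3, ACCSL, NLRP9, KHDC3L, NLRP13, NLRP14 and UNCX, with r from 0.94 to 0.997, 8 of them on the lists and 8 shared with the set from all libraries. By Spearman rho, 2 of the 10 genes from all libraries were still among the 10 nearest, and 7 of the 10 from granulosa libraries. On none of the oocyte lists were FOXI3, a forkhead factor, UNCX, a homeobox factor, and SAXO1, a protein that binds microtubules. FOXI3 had 221 reads in granulosa and 0 in theca cells, at least 75.0-fold higher, and averaged 13.1 ± 13.3 in prenatal T granulosa and 30.2 ± 28.5 in control granulosa cells (SD). UNCX had 602 and 3 reads, a ratio of 204 (95% exact interval 69.6 to 994), and averaged 38.5 ± 35.6 in prenatal T granulosa and 79.3 ± 62.3 in control granulosa cells.

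The cells that receive GDF9 and BMP15 signal through BMPR2 with BMPR1B or TGFBR1 and through SMAD proteins. Of 15 such genes, all tested, 4 were higher and 6 lower in granulosa than in theca cells, where 28.6% of all genes were called higher and 28% lower. BMPR1B, the receptor altered in the Booroola sheep, was higher by 0.55 ± 0.09 (SE; adjusted p = 0.000343 by limma) and averaged 3887 ± 2045 in prenatal T granulosa and 4528 ± 1268 in control granulosa cells, and 2598 ± 1458 in prenatal T theca and 3012 ± 555 in control theca cells (SD). BMPR2, the shared type II receptor, was higher by 0.29 ± 0.06 (adjusted p = 0.00173), SMAD2 by 1.23 ± 0.17 and SMAD4 by 0.32 ± 0.10. BMPR1A, ACVR1, SMAD1, SMAD5, SMAD6 and ID1, most of which serve other BMP ligands as well, were lower, ACVR1 by -1.21 ± 0.18 and ID1 by -1.05 ± 0.10. With prenatal T, 0 of the 15 were called in granulosa cells and 0 in theca cells by limma, edgeR or DESeq2, with 1 and 0 at an unadjusted p under 0.05 by limma.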

How the data were processed

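Of 20 samples in the labels, 19 RNA sequencing libraries were used. The deposited signal is a gene count that the authors scaled with 1 size factor per library. The submitters' processing notes name STAR 2.6.0c, featureCounts (Subread 1.6.1), DESeq2, FastQC 0.11.5 and MultiQC 0.9. A genome build was not given in the sources used here. Every value (100%) was a whole multiple of its library's step (relative tolerance 1e-06), and dividing by the step recovered the reads. Same-group libraries differed beyond sampling noise (36 pairs, at least 25.9 in chi-square over its degrees of freedom).

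limma 3.58.1 (R 4.3.3, trend, two-sided) tested genes with 10 or more in no fewer than 5 libraries on log2(value + 1), which understates changes of low genes. Benjamini-Hochberg adjustment ran over all genes of a comparison at 0.05. The animal was a block between layers, since the labels give both layers 1 sheep number; deviations of an animal's layers correlated at r = 0.42 to 0.80 across genes. edgeR 4.0.16 and DESeq2 1.42.0 used the recovered reads. The limma fits were tested on simulated independent counts, which held no animal effect and no outlying library, so the test does not cover these. Single members had 22 exact permutation tests, unadjusted. Labels do not say more on separate sampling, so p-values measure the spread between these animals. Intervals on reads cover counting error only. Members and lists were chosen with earlier results of these data known. Other genes were named by rule: up to 4 per list of smallest p past the threshold, otherwise the 2 of highest level, and the 10 of most similar pattern.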

Additional observations from a re-analysis of the deposited data

Results flagged for a closer look

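Within groups of 4 or 5 libraries, 5 of 26 groups tested had 1 library far from the others by Dixon's criterion, which chance alone meets in about 1 group in 20 where values are normally distributed. That rate is no guide here, because in each case a gene had reads in 1 library and none in the rest of its group, which meets the criterion by construction. ZP4 stood at 3.14 and BMP15 at 1.05 in theca cells of prenatal T sheep 230, both at 0 in the other prenatal T theca libraries. NLRP5 stood at 2.13 in theca cells of prenatal T sheep 210. DAZL stood at 4.58 in granulosa cells of prenatal T sheep 276 and at 1.11 in granulosa cells of control sheep 224. These values rest on 1 to 4 reads each.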

How the results depend on the processing

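The count of members called between granulosa and theca cells was 6, and 5 to 6 with 1 animal left out, where 56.6% of all genes were called and ZP3, ZP4, BMP15 and MOS met the filter through granulosa libraries alone. It was 5 with no replicate block and 7 without the filter on low values, where NLRP5 joined (2.22, adjusted p = 0.0140 by limma) and 37.8% of 24823 genes were called. No setting called a member with prenatal T in either layer or for the difference of changes. ZP2 between layers lost its call with no replicate block (1.72, adjusted p = 0.113) and without sheep 224, 230, 244, 246, 276 or 315 (adjusted p 0.0517 to 0.0681; 1.48 to 2.43 over the leave-outs); the cause was not tested.

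Of 343 recomputed member changes, 320 kept direction and side of the threshold, 7 were weaker and 16 reversed, none of the reversed ones called. Over single left-out animals the prenatal T change in granulosa cells ran from -1.90 to 0.27 for ZP2, -1.95 to 0.30 for ZP4, -1.97 to 0.30 for BMP15 and -2.25 to 0.17 for MOS. The difference between layers ran from -1.81 to 0.73 for ZP2, -0.27 to 0.54 for GDF9, -2.18 to 0.042 for BMP15 and -2.25 to 0.17 for MOS. It was 0.053 for ZP2 with no replicate block and -0.053 for GDF9 on values in RPM. Genes called were 9210 between layers and 5936 with no replicate block. DESeq2 called 16 genes in granulosa cells, 7 in theca cells and 18 for the difference, where limma called 0, or 32, 58 and 32 without sheep 209 (added after seeing the data). With the animal as a replicate block over all libraries, limma called 1 gene in granulosa cells; the block changed no other member call. Depth limits genes at 0 to 3 reads per library, and in theca cells only GDF9 met the filter between treatments; without it, limma had ZP2 at -0.85, with an adjusted p of 0.794 for ZP2, ZP4, BMP15 and NLRP5.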
